A study of Mus musculus with 9 samples.

Results

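The genes described here encode 60 nucleolar factors that assemble the ribosome. They were chosen by name from a fixed list, which was drawn up with earlier results of these data known. They were looked up by gene identifier in a table of 53380 rows, and all 60 were found. They were measured in a cultured murine T-ALL line, T-ALL being a leukemia of T lymphoblasts, that was derived from tumors of EμSRα-tTA/tet-O-MYC mice on the FVB/N background. In this model the EμSRα promoter drives the transactivator tTA in lymphoid cells, tTA switches on a human MYC transgene, and doxycycline shuts the transgene off. Every group carries both transgenes. The 3 groups had 3 libraries each: mock treatment with PBS (MYC on), 20 pg/mL doxycycline (MYC intermediate) and 500 pg/mL doxycycline (MYC off), all harvested at 48 h. The design asks how RNA levels follow the level of MYC. The sources used here do not say whether the sequenced line is 1 clone or whether replicates were separate cultures, so that p-values reflect the spread between these 9 libraries alone, which may be technical.

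Ribosome assembly starts in the nucleolus, where RNA polymerase I copies the rRNA genes into a long precursor. Box C/D particles, each with a small guide RNA and the proteins fibrillarin, Nop56 and Nop58, methylate this precursor. A large assembly called the small subunit processome, built around the U3 guide RNA, cuts out and folds the 18S part. Other factors fold the 28S and 5.8S parts into the large subunit. MYC is a transcription factor that pairs with MAX and binds the E-box, and genes of ribosome production are among its classic targets. The 60 members were ordered by role: 6 nucleolar scaffold and box C/D proteins, 3 factors linked to polymerase I, 27 small subunit factors and 24 large subunit factors.

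Totals ran from 18705516 to 39678799 counts per library, and replicates of a group correlated at r = 0.991 to 0.995. These r are taken across genes, which are no independent samples. The transgene followed the labels, with MYC intermediate at 32.4% and MYC off at 0.300% of its MYC on level. Mitochondrial transcripts took 0.107% to 0.122% of counts in the 3 groups. All 12 T cell markers were detected, and their summed level was 3937 to 4068 CPM (counts of a gene scaled to a common library total) in MYC on, 6452 to 6688 CPM in MYC intermediate and 8372 to 8699 CPM in MYC off. Of 21 markers of other cell types, 15 had 0 counts in every library, among them the myeloid marker Lyz2. The 21 summed to 23.3 to 26.5 CPM in MYC on, 19.9 to 21.8 CPM in MYC intermediate and 18.7 to 20.7 CPM in MYC off, nearly all of it Csf1r. Both marker sums moved with the groups, and their part in the results was not tested.

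The assembly factors fell in steps with MYC. Of the 60 members, 59 passed the filter on low counts, and 58 of these were higher in MYC on than in MYC off at an adjusted p under 0.01, against 27.4% of the 14098 genes tested. None was lower, whereas 27.5% of all genes were, and no member was lower at an unadjusted p under 0.05 or by DESeq2. More than 2-fold higher were 51 members (10.8% of all genes tested) and more than 4-fold higher were 22 (2.92%). The median log2 fold change over the tested members was 1.80, which is 3.47-fold, while the median over all genes tested was −0.03. Scaling between libraries holds this second median near 0, so the fold changes are relative to the other genes. A change shared by all RNA of a cell would not show. All 59 tested members were well above the detection limit in MYC off too, where the lowest mean level was 11.3 CPM (Noc3l). Because RNA was taken from whole cultures, fewer cells that express a gene and less RNA per cell cannot be told apart.

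Both dose steps carried the decline. Between MYC on and MYC intermediate, 57 members were higher in MYC on and 0 were lower, against 17.2% of all genes higher and 17.4% lower. The median log2 fold change of this first step was 0.76, and 6 members were over 2-fold higher (3.03% of genes). The call was missed by Utp3 and Gnl3l. Between MYC intermediate and MYC off, 56 members were higher in MYC intermediate and 0 were lower, against 14.7% and 9.95% of genes. The median of this second step was 1.04, 32 members were over 2-fold higher (2.84% of genes), and Utp3, Gnl3l and Dhx37 were not called. At an unadjusted p under 0.05, or by DESeq2, the count of members lower in either step was also 0. Over all genes the medians of these steps were −0.01 and −0.01. Higher in both steps were 56 members (10.8% of genes). In 58 of the 60 the 3 libraries of each group did not overlap and followed the order MYC on, MYC intermediate, MYC off, which 15.8% of genes did, and the exceptions were Utp3 and Wdr74. These comparisons share libraries and are not independent of each other.

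**Figure D1:**
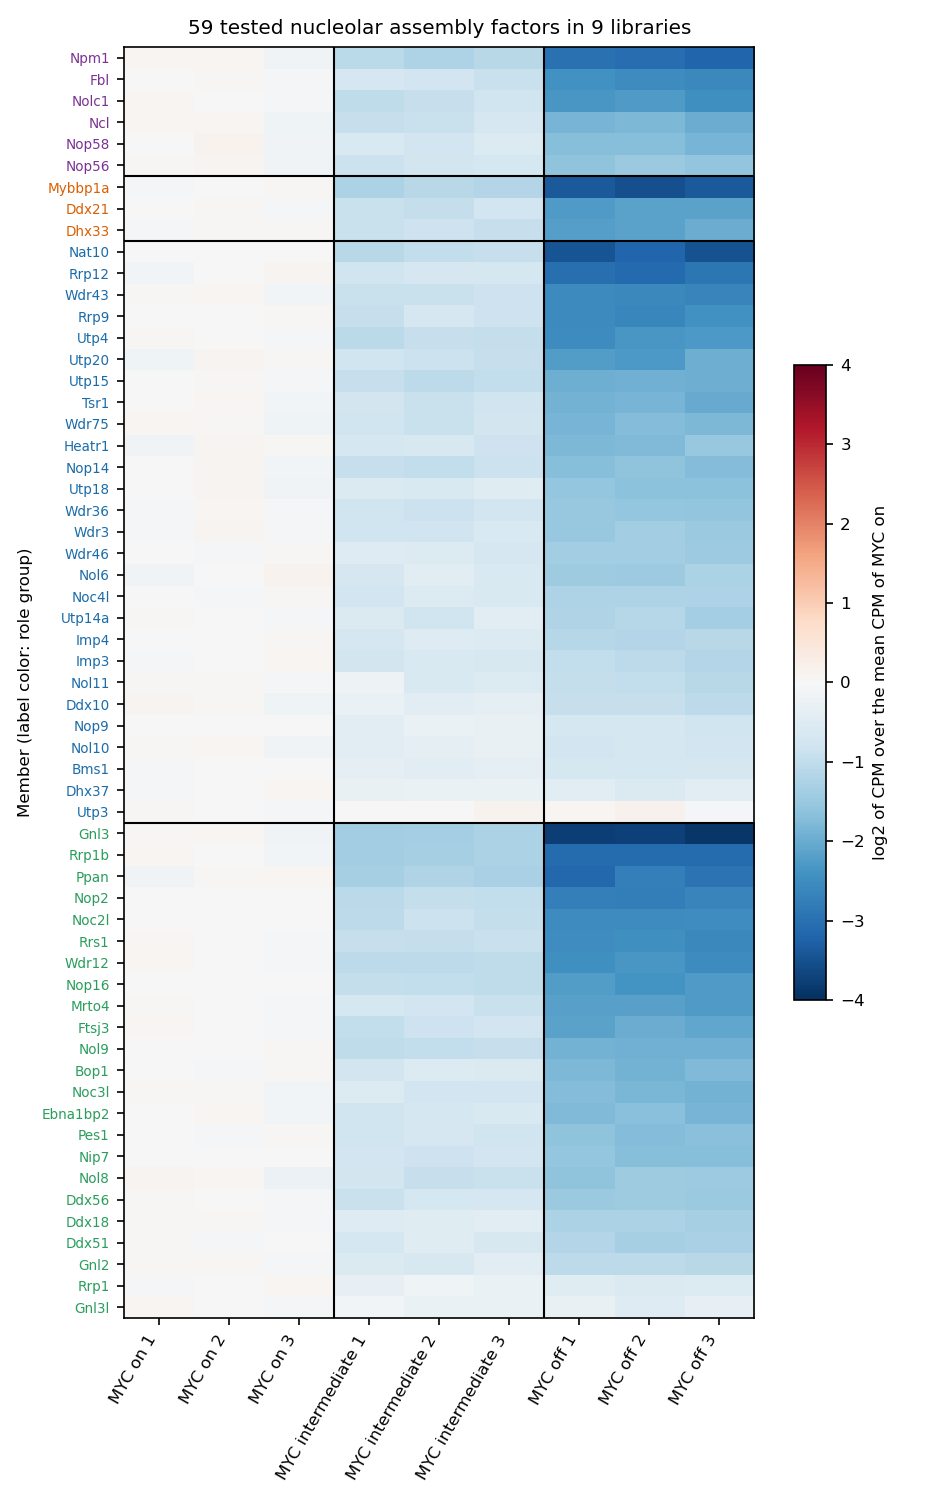
Each row is 1 of the 59 tested members, colored by role group, and each column is 1 library. Color gives the log2 of the CPM over the mean CPM of the 3 MYC on libraries, so that white is the MYC on level. All rows but Utp3 darken from MYC on through MYC intermediate to MYC off.

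Together the 60 members took 1.62% ± 0.0595 of all counts in MYC on, 0.934% ± 0.0319 in MYC intermediate and 0.460% ± 0.0089 in MYC off (SD, n = 3 each). The scaffold and box C/D proteins gave 0.592%, 0.326% and 0.147% of counts in the 3 groups, the large subunit factors 0.501%, 0.294% and 0.151%, the small subunit factors 0.437%, 0.272% and 0.150%, and the polymerase I linked factors 0.0909%, 0.0430% and 0.0121%. The shares of the first 3 role groups thus differed in MYC on and were nearly equal in MYC off. Nucleophosmin (Npm1) and nucleolin (Ncl) alone took 0.401% of counts in MYC on and 0.0921% in MYC off.

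Levels of different genes were compared per length, in the deposited TPM, which scale the reads of a gene by its length and by depth. In MYC on the most abundant member was Npm1 with 1399.5 ± 117 TPM (SD, n = 3). It was followed by Ncl with 959 ± 90.6 TPM, Nop56 with 738 ± 65.7 TPM and Bop1 with 574 ± 21.8 TPM, and the least abundant tested member was Nol8 with 12.5 ± 1.61 TPM. The order changed with MYC. In MYC off Rrp1 led with 308 ± 6.40 TPM, ahead of Ncl with 259 ± 16.2 and Nop56 with 251 ± 12.1 TPM, whose SDs overlapped, and of Utp3 with 193 ± 13.4 TPM. Npm1 stood at 166 ± 8.59 TPM there. The median over tested members went from 137.7 TPM in MYC on to 87.3 TPM in MYC intermediate and 39.5 TPM in MYC off, and 43, 24 and 9 members exceeded 100 TPM in the 3 groups.

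The range of responses is framed by 5 promoters, those of the 3 members with the largest and the 2 with the smallest fold change among members with a promoter entry in RefSeq. Each is printed 5′ to 3′ on the gene's own strand, from 250 bases before to 50 bases after the transcription start (GRCm38.p6), in lower case with the canonical E-box CACGTG in capitals. Gnl3 lies at chr14:31019082-31019381, Mybbp1a at chr11:72441077-72441376, Nat10 at chr2:103761221-103761520, Dhx37 at chr5:125433999-125434298 and Utp3 at chr5:88554212-88554511.
Gnl3: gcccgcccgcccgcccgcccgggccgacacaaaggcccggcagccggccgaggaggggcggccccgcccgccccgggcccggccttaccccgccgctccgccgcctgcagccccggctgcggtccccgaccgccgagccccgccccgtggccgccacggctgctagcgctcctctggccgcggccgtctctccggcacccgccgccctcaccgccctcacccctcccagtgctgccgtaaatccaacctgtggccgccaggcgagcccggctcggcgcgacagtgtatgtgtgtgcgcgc
Mybbp1a: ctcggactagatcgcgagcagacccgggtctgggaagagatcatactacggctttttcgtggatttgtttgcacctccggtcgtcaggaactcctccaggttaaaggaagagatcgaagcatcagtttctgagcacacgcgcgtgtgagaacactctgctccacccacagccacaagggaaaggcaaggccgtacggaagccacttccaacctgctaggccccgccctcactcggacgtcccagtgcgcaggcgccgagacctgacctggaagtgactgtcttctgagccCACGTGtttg
Nat10: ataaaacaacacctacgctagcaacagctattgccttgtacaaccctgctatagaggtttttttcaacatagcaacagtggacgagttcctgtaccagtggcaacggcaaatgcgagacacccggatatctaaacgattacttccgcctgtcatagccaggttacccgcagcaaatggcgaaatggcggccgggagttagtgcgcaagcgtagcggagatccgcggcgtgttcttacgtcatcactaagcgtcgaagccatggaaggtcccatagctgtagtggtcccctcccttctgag
Dhx37: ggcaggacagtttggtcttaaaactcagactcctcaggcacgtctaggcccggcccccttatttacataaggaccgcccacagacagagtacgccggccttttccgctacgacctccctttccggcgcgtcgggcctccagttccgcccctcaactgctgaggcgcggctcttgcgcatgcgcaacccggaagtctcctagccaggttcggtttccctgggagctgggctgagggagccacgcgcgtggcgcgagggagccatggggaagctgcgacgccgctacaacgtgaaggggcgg
Utp3: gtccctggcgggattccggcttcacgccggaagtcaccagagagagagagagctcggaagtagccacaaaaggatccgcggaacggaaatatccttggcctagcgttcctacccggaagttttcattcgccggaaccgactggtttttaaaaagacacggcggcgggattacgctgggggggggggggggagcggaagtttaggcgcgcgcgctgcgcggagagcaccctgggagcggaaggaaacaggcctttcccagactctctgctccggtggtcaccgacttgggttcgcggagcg
Of these 5 only Mybbp1a held the canonical E-box, centered 43 bases after the start. The promoters of Gnl3 and Nat10, which were 14.2-fold and 10.5-fold higher in MYC on, had no CACGTG in this window, and neither had those of Dhx37 and Utp3. GC content ran from 52% in Nat10 to 80.3% in Gnl3.

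Promoter entries were found for 51 members with 56 starts, and none for Npm1, Fbl, Wdr36, Nol6, Rrp12, Bop1, Rrs1, Gnl2 and Gnl3l. CACGTG, which reads the same on both strands, was in 12 of the 56 promoters (21.4%), 1 each in Dhx33, Imp4, Mybbp1a, Nol11, Nop2, Pes1, Tsr1, Utp18, Utp20, Utp4, Wdr43 and Wdr46. It was in 7.15% of all 32851 promoters, in 10.0% of those of tested genes and in 16.3% of those of genes over 2-fold higher in MYC on. The variant CACGCG, searched together with its reverse complement CGCGTG, was in 28.6% of member promoters, in 9.27% of all promoters, in 17.2% of those of tested genes and in 23.5% of those of genes over 2-fold higher in MYC on. TATAAA was in 5.36% of member promoters, against 13.6% of all promoters and 6.74% of those of tested genes. Member promoters had a median of 22.5 CG pairs, where all promoters had 7 and those of tested genes 20. These are counts of letters and not of bound sites.

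The E-boxes of members lay near the start. Of the 12, 4 lay within 50 bases before it and 6 within 50 bases after it, and the farthest was that of Imp4, 118 bases before the start. Members with CACGTG had a median log2 fold change of 2.04 between MYC on and MYC off (n = 12, from 1.05 in Nol11 to 3.45 in Mybbp1a), and those without it had 1.75 (n = 38, from −0.03 in Utp3 to 3.83 in Gnl3). The range of the first set lay wholly inside that of the second, and Wdr74, which has an entry, was not tested. Among other tested genes the medians were 0.11 with CACGTG (n = 1100) and −0.04 without (n = 8237).

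**Figure D2:**
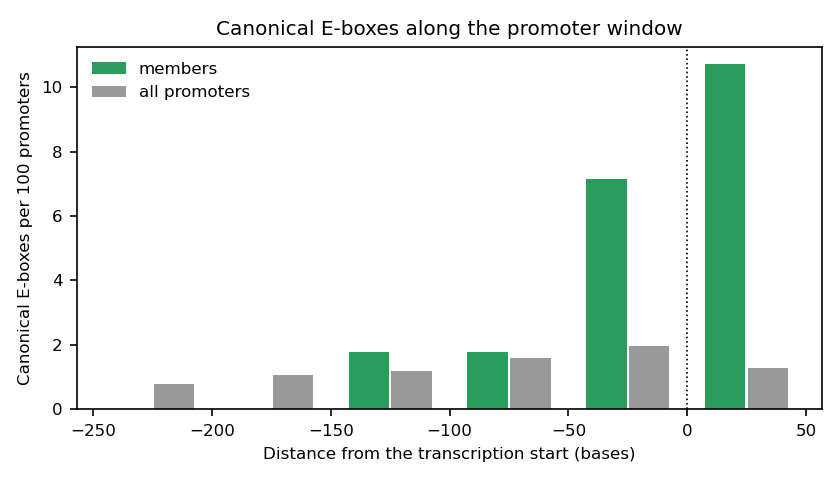
Canonical E-boxes (CACGTG) per 100 promoters in 50-base bins of distance from the transcription start, for the 56 member promoters (green) and all 32851 promoters (grey). The members have 7.14 and 10.7 per 100 in the bins on either side of the start, which hold 4 and 6 E-boxes. All promoters have 1.96 and 1.28, and bins for promoters of tested genes alone were not counted.

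The scaffold and box C/D proteins all fell with MYC, 6 of 6, with a median log2 fold change of 2.15. Of all genes tested, 27.4% were higher in MYC on than in MYC off. Npm1, the nucleophosmin that organizes the outer layer of the nucleolus and escorts proteins into it (ENSMUSG00000057113.13, mm10 chr11:33152287-33163206, minus strand), had 1159.9, 1160.1 and 1003 CPM with MYC on (replicates 1 to 3), 526, 469 and 509 CPM with MYC intermediate, and 140.2, 134 and 123 CPM with MYC off (log2 fold change 3.10 ± 0.0787 SE, edgeR adjusted p = 5.8e-14). Its groups were far apart, and 12% of the MYC on level was left in MYC off. Of its 4 processed pseudogenes that match it at 95% identity or more over at least 200 bases, the summed level was 22.4 CPM with MYC on and 2.42 CPM with MYC off (how reads were split between gene and copies was not tested). Such a copy of Fbl had 8.23 CPM with MYC on and 2.98 CPM with MYC off, and those of Ddx18, Ddx21, Mrto4, Nop56, Pes1 and Wdr12 summed to at most 3.92 CPM per gene in either group. Ncl, the nucleolin that binds the rRNA precursor (ENSMUSG00000026234.12, mm10 chr1:86344719-86359400, minus strand), had 3076, 3037 and 2589.7 CPM with MYC on, 1531, 1552 and 1802 with MYC intermediate, and 802, 834 and 729 with MYC off (log2 fold change 1.91 ± 0.0805 SE, edgeR adjusted p = 1.29e-11). MYC on replicate 3 was the lowest of its group for both genes and still lay above every MYC intermediate library.

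Fibrillarin, the methyltransferase of box C/D particles, had a larger fold change than Nop58 and Nop56 of the same particles, a difference that was not tested. Fbl (ENSMUSG00000046865.7, mm10 chr7:28169710-28179269, plus strand) had 145, 149 and 136 CPM with MYC on, 90, 83.9 and 77.7 with MYC intermediate, and 26.9, 24.9 and 23.9 with MYC off (log2 difference of 2.54 ± 0.0788 SE, adjusted p = 4.51e-13). Nop58 (ENSMUSG00000026020.9, mm10 chr1:59684971-59719044, plus strand) had 441, 498 and 402 CPM with MYC on, 291, 263 and 308 with MYC intermediate, and 139, 137 and 123 with MYC off (log2 difference of 1.78 ± 0.0812 SE, adjusted p = 3.04e-11). Nop56 (ENSMUSG00000027405.16, mm10 chr2:130274430-130279313, plus strand) had 925, 959 and 812 CPM with MYC on, 491, 541 and 554 with MYC intermediate, and 297, 321 and 303 with MYC off (log2 difference of 1.58 ± 0.0646 SE, adjusted p = 9.35e-12). In all 3 genes the groups were apart, and MYC off kept 17.6%, 29.7% and 34.1% of the MYC on level. Nolc1, a chaperone of box C/D and H/ACA particles (ENSMUSG00000015176.10, mm10 chr19:46075863-46085530, plus strand), had 446, 432 and 402 CPM with MYC on, 210.0, 227 and 247 with MYC intermediate, and 84.6, 88.2 and 78.6 with MYC off (log2 difference of 2.38 ± 0.07 SE, adjusted p = 2.75e-13).

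The 3 factors linked to polymerase I were all higher in MYC on than in MYC off, against 27.4% of all genes tested. Mybbp1a, a nucleolar protein that binds polymerase I and the rRNA precursor (ENSMUSG00000040463.16, mm10 chr11:72441355-72451768, plus strand), had 616, 632 and 662 CPM with MYC on, 265, 297 and 283 with MYC intermediate, and 61.7, 55.6 and 61.9 with MYC off (log2 difference of 3.45 ± 0.0679 SE, adjusted p = 4.77e-15). This is 10.9-fold, in the gene whose promoter was shown with an E-box. Ddx21, an RNA helicase of rRNA transcription and processing (ENSMUSG00000020075.8, mm10 chr10:62580251-62602281, minus strand), had 162, 169 and 157 CPM with MYC on, 88.2, 83.1 and 96.4 with MYC intermediate, and 33.8, 37.1 and 36.9 with MYC off (log2 difference of 2.21 ± 0.0659 SE, adjusted p = 2.95e-13). Dhx33, another helicase of rRNA transcription (ENSMUSG00000040620.15, mm10 chr11:70984091-71004437, minus strand), had 105, 112 and 112 CPM with MYC on, 59.2, 62 and 57.4 with MYC intermediate, and 23.8, 24.9 and 28 with MYC off (log2 difference of 2.14 ± 0.0708 SE, adjusted p = 8.96e-13). Ddx21 and Dhx33 kept 54.9% and 54.2% of their MYC on level in MYC intermediate. In MYC off they kept 22.1% and 23.3%.

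**Figure D3:**
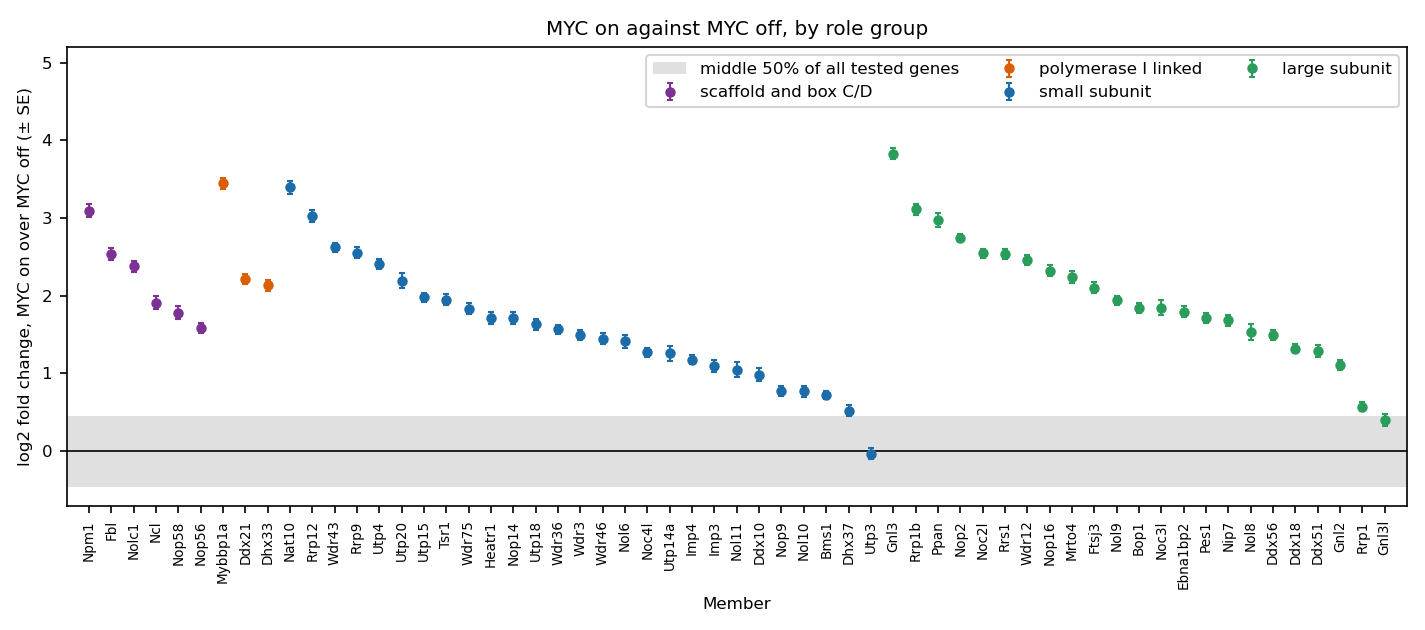
Log2 fold change between MYC on and MYC off (points, edgeR) with its SE (bars) for the 59 tested members, by role group and in falling order within each. The grey band holds the middle 50% of all genes tested, and of the members only Utp3 and Gnl3l have their point inside it.

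Among the 27 small subunit factors 26 were higher in MYC on than in MYC off (27.4% of all genes tested). The median log2 fold change of the 27 was 1.49, and 6 were over 4-fold higher (2.92% of all genes tested). Nat10, which acetylates cytidines of 18S rRNA (ENSMUSG00000027185.14, mm10 chr2:103721256-103761270, minus strand), had 187, 189.9 and 183 CPM with MYC on, 86.4, 94.1 and 98 with MYC intermediate, and 17.2, 20.8 and 16.7 with MYC off (log2 difference of 3.39 ± 0.0794 SE, adjusted p = 2.41e-14). Rrp12, a factor of late small subunit maturation and export (ENSMUSG00000035049.3, mm10 chr19:41862851-41896173, minus strand), had 164, 174 and 189 CPM with MYC on, 101, 111 and 107 with MYC intermediate, and 21.9, 20.2 and 23.8 with MYC off (log2 difference of 3.03 ± 0.0775 SE, adjusted p = 6.11e-14). For both genes MYC intermediate lay nearer to MYC on than to MYC off on the log2 scale. Wdr43, a processome subunit that binds the start of the precursor (ENSMUSG00000041057.9, mm10 chr17:71615895-71659031, plus strand), had 434, 442 and 389 CPM with MYC on, 228, 228 and 239 with MYC intermediate, and 72.1, 71 and 67.2 with MYC off (log2 difference of 2.62 ± 0.063 SE, adjusted p = 3.12e-14). Rrp9, a protein of the U3 particle (ENSMUSG00000041506.15, mm10 chr9:106475963-106485424, plus strand), had 133, 132 and 138 CPM with MYC on, 71.2, 84.3 and 76.2 with MYC intermediate, and 23, 22.1 and 25 with MYC off (log2 difference of 2.56 ± 0.0748 SE, adjusted p = 2.7e-13). Utp4, known in people as cirhin (ENSMUSG00000041438.8, mm10 chr8:106893636-106923088, plus strand), had 323, 312 and 294 CPM with MYC on, 146, 164 and 161 with MYC intermediate, and 54.6, 61.8 and 63.1 with MYC off (log2 difference of 2.41 ± 0.0657 SE, adjusted p = 1.18e-13). No library of any of these genes overlapped another group.

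Members with little or no change were also found among the small subunit factors. Dhx37, the helicase that removes U3 from the processome (ENSMUSG00000029480.13, mm10 chr5:125413858-125434121, minus strand), had 58, 62.7 and 64.4 CPM with MYC on, 49.7, 51.8 and 50.9 with MYC intermediate, and 44.7, 41.4 and 45.9 with MYC off. It was 1.43-fold higher in MYC on than in MYC off (adjusted p = 8.1e-06), and its second step missed the threshold (adjusted p = 0.0101). Utp3, a processome protein also called Sas10 (ENSMUSG00000070697.4, mm10 chr5:88554462-88556090, plus strand), was the only tested member with no call in the comparison of MYC on with MYC off, with 93.2, 90.5 and 85.5 CPM with MYC on, 89.8, 90.2 and 98.2 with MYC intermediate, and 95.3, 100.1 and 86.3 with MYC off (log2 fold change −0.03 ± 0.0684 SE, edgeR adjusted p = 0.696). Its groups overlapped in all 3 comparisons, and at 185 to 193 TPM it was an abundant member throughout. The other 20 small subunit factors had log2 fold changes from 0.72 in the GTPase Bms1 to 2.19 in the scaffold Utp20, and all were called.

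Members of known complexes, grouped after their values were seen, spanned a range of fold changes. In the U3 particle Rrp9 changed by 2.56 on the log2 scale, but Imp3 and Imp4, which join U3 to the precursor, by 1.10 ± 0.079 and 1.18 ± 0.0573 SE, and their partner Mphosph10, which is not a member, by 1.14 ± 0.101 SE. In the UTP-A complex, the first to load on the precursor, the log2 fold changes were 2.62 in Wdr43, 2.41 in Utp4, 1.98 in Utp15, 1.83 in Wdr75, 1.72 in Heatr1 and 1.05 in Nol11. In the UTP-B complex they were 1.63 in Utp18, 1.57 in Wdr36 and 1.49 in Wdr3. Its other subunits, which are in the list of other small subunit factors, had log2 fold changes of 1.96 (Pwp2), 1.2 (Tbl3) and 0.96 (Utp6), and Tbl3 shares 37.3% of its exonic bases with other genes. In the PeBoW complex of the large subunit Wdr12 changed by 2.46 ± 0.0624 SE, Bop1 by 1.85 ± 0.0644 and Pes1 by 1.71 ± 0.0616. The differences between genes were not tested. Imp3 has a near copy, the processed transcript 4933427G23Rik, with 95.8% identity over 567 bases. This copy had 12.2 CPM with MYC on, 11.1 with MYC intermediate and 12.4 with MYC off. How reads were split between Imp3 and this copy was not tested.

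All 23 tested large subunit factors were higher in MYC on than in MYC off (27.4% of all genes tested). Their median log2 fold change was 1.85, and 10 were over 4-fold higher (2.92% of all genes tested). Gnl3, the GTPase nucleostemin (ENSMUSG00000042354.7, mm10 chr14:31012433-31019152, minus strand), had 243, 248 and 215 CPM with MYC on, 89, 92 and 97.3 with MYC intermediate, and 17.2, 17.6 and 16 with MYC off (log2 difference of 3.83 ± 0.0738 SE, adjusted p = 4.77e-15). This change of 14.2-fold was the largest of the 59 tested members, and 7.20% of the MYC on level was left in MYC off. Rrp1b, a relative of the large subunit factor Rrp1 (ENSMUSG00000058392.12, mm10 chr17:32036100-32062865, plus strand), had 156, 148 and 137 CPM with MYC on, 55.6, 59.1 and 60.9 with MYC intermediate, and 17.3, 17.6 and 17.3 with MYC off (log2 difference of 3.11 ± 0.0707 SE, adjusted p = 1.95e-14). Ppan, the homolog of the fly growth gene peter pan (ENSMUSG00000004100.12, mm10 chr9:20888175-20892178, plus strand), had 123, 139 and 142 CPM with MYC on, 53.6, 58.5 and 55.3 with MYC intermediate, and 15.1, 20.3 and 17.4 with MYC off (log2 difference of 2.98 ± 0.0904 SE, adjusted p = 3.55e-13). In each of the 3 genes MYC intermediate held 39.4% to 41.5% of the MYC on level, lower than in any other tested member.

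Nop2, which methylates a cytidine of 28S rRNA (ENSMUSG00000038279.10, mm10 chr6:125131909-125144753, plus strand), had 276, 283 and 282 CPM with MYC on, 134, 144 and 140.2 with MYC intermediate, and 42.2, 41.5 and 44.8 with MYC off (log2 difference of 2.74 ± 0.0566 SE, adjusted p = 7.64e-15). Noc2l, a pre-60S factor that also inhibits histone acetyltransferases (ENSMUSG00000095567.7, mm10 chr4:156236010-156247616, plus strand), had 423, 421 and 428 CPM with MYC on, 204, 236 and 217 with MYC intermediate, and 73.9, 73.5 and 75.4 with MYC off (log2 difference of 2.55 ± 0.0595 SE, adjusted p = 2.41e-14). Noc2l shares 20.9% of its exonic bases with Samd11 on the other strand (75.7 CPM with MYC on and 12.9 with MYC off), and with a kit that does not mark strand the reads of shared bases cannot be told apart. The same holds for Tsr1, which shares 32.3% with Srr (81.4 and 38.9 CPM), and for Nop9, which shares 29.9% with Cideb (2.19 and 1.39 CPM). Of the 60 members, 23 share some exonic bases with another gene and these 3 share over 20%.

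The large subunit factors that changed least were Rrp1 and Gnl3l. Rrp1 (ENSMUSG00000061032.9, mm10 chr10:78400384-78413043, minus strand) had 429, 439 and 475 CPM with MYC on, 354, 401 and 369 with MYC intermediate, and 319, 299.8 and 304 with MYC off (log2 difference of 0.58 ± 0.0621 SE, adjusted p = 7.74e-07). Gnl3l, a nucleolar GTPase related to nucleostemin (ENSMUSG00000025266.11, mm10 chrX:150983141-151017322, minus strand), had 107, 103 and 96.3 CPM with MYC on, 95.4, 84.6 and 85.8 with MYC intermediate, and 83.7, 71.6 and 81.2 with MYC off (log2 difference of 0.41 ± 0.0785 SE, adjusted p = 0.000306). Neither step of Gnl3l was called on its own (adjusted p = 0.0558 and 0.0447), although its groups did not overlap. The other 16 tested large subunit factors had log2 fold changes from 1.11 in the GTPase Gnl2 to 2.53 in Rrs1, which brings the 5S particle into the large subunit. Wdr74, the member that did not pass the filter, had 2 to 7 counts per library, or 0.191, 0.204 and 0.132 CPM on average, too few to be tested. How reads of its locus were assigned is not given in the sources used here.

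Related members were compared within each library by the log2 ratio of their counts. Gnl3 over Gnl3l went from 1.2 ± 0.0581 in MYC on to 0.0676 ± 0.148 in MYC intermediate and −2.22 ± 0.167 in MYC off (SD, n = 3 each), so that Gnl3 had the higher counts in MYC on and Gnl3l in MYC off. Rrp1b over Rrp1 went from −1.61 ± 0.170 to −2.68 ± 0.0823 and −4.14 ± 0.0563. Gnl2 over Gnl3l went from 0.69 ± 0.0301 to 0.35 ± 0.147 and −0.0039 ± 0.135. Nop58 over Nop56 was −1.01 ± 0.0622, −0.88 ± 0.144 and −1.21 ± 0.103. Between MYC on and MYC off the mean log ratios differed by 3.42, 2.53, 0.70 and 0.20 in this order, with no overlap of libraries. The exact two-sided permutation p was 0.1 for each of the 4 pairs, also after adjustment, and 0.1 is the smallest that 3 libraries against 3 allow.

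**Figure D4:**
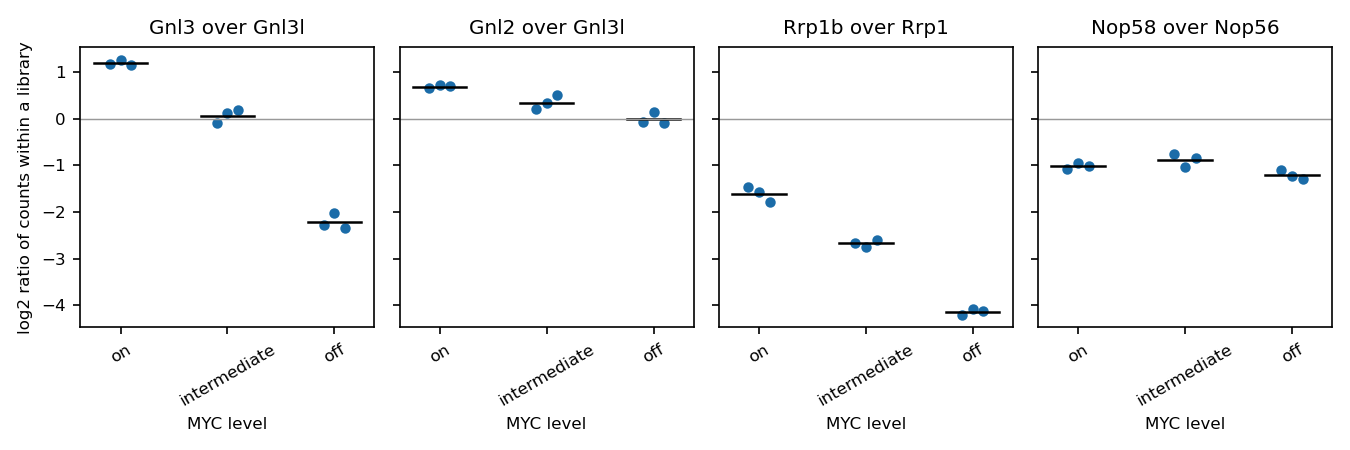
Log2 ratio of the counts of 2 related members within a library, 1 point per library (n = 3 per group) with a line at the group mean. The ratios of Gnl3 over Gnl3l and of Rrp1b over Rrp1 fall by 3.42 and 2.53 from MYC on to MYC off, and those of Gnl2 over Gnl3l and Nop58 over Nop56 by 0.70 and 0.20.

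The transgene levels were unevenly spaced on the log2 scale, where MYC intermediate lay at 0.192 of the way from MYC on to MYC off. For the 51 members over 2-fold higher in MYC on, the median position of MYC intermediate was 0.407, counted from 0 at MYC on to 1 at MYC off, and 47 lay below 0.5. For all 1517 genes over 2-fold higher the median was 0.474, with 870 below 0.5. The members ranged from 0.234 in Rrp12 and 0.294 in Nat10 to 0.588 in Imp3. On the linear scale the median tested member kept 58.5% of its MYC on CPM in MYC intermediate and 29.4% in MYC off. The transgene kept 32.4% and 0.300%, so on this scale it lost more than the median member in the first step.

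Whether the steps were equal was tested for each gene by the contrast of MYC on plus MYC off less 2 times MYC intermediate, on the log2 scale. It was negative and called in 14 members, against 1.7% of genes, which places MYC intermediate above the midpoint, and it was positive and called in none, against 0.184% of genes. Without the filter on low counts it was negative and called in 22 members, against 2.74% of genes. No positive value passed an unadjusted p under 0.05, and DESeq2 called none either. Rrp12 had the value farthest from 0 of the members, −1.61 ± 0.12 SE (edgeR adjusted p = 1.11e-06), with a first step of 0.71 and a second step of 2.32. Nat10 followed with −1.40 (adjusted p = 6.98e-06) and Gnl3 with −1.17 (adjusted p = 2.09e-05). The other called members were Mybbp1a, Fbl, Rrp9, Wdr43, Npm1, Nop2, Rrs1, Mrto4, Noc2l, Bop1 and Nolc1, with values from −1.11 to −0.59.

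These 14 include all 4 role groups: 3 scaffold and box C/D proteins, 1 polymerase I linked factor, 4 small subunit and 6 large subunit factors. Of them 10 were also called under each of 16 other settings, and without MYC intermediate replicate 2 the count was 10. Nolc1 was called in 7 of the 16 settings, Mrto4 in 11, and Noc2l and Bop1 in 15. For Nolc1 and Mrto4 the adjusted p was 0.0379 and 0.034 without that library, and for Bop1 and Noc2l it was 0.0328 and 0.0135. The first step was larger than the second, without a call, in Imp3, Nop14, Wdr36, Bms1, Dhx37 and Nol8.

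**Figure D5:**
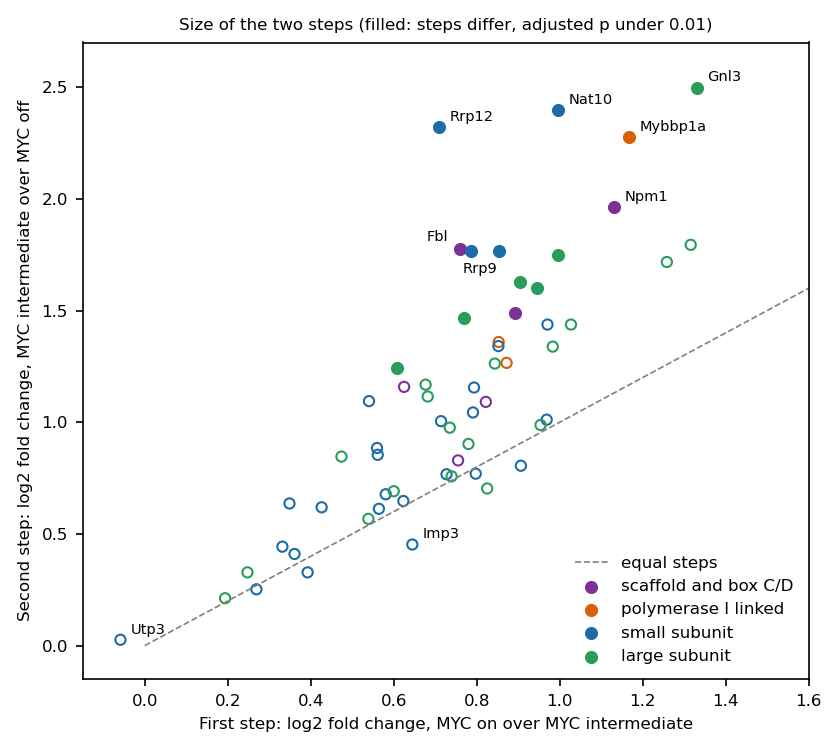
Log2 fold change of the first step (MYC on over MYC intermediate) against that of the second (MYC intermediate over MYC off) for the 59 tested members, colored by role group. The 14 filled points, all above the dashed line of equal steps, are members whose steps differed at an adjusted p under 0.01, and 6 members lie below the line.

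Other genes of the same pathway, 91 listed by name, had a smaller median fold change than the members. Members and lists were both chosen with earlier results of these data known. The part of that choice in the difference was not tested. Of these, 90 had a match and 89 were tested, and 74 were higher in MYC on than in MYC off, 2 were lower and 13 were not called, with a median log2 fold change of 0.73. In the first step 54 were higher and 2 lower, and in the second 62 and 1. Of all genes tested, 27.4% were higher and 27.5% lower in MYC on than in MYC off. The shares were 17.2% and 17.4% in the first step, and 14.7% and 9.95% in the second. Over the 89 tested pathway genes, the median share of the MYC on CPM kept in MYC off was 61.8%. Exosc6, at 0 counts, was not tested, and all of its exonic bases lie inside Aars.

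Of 35 other small subunit factors 27 were higher and 2 lower in MYC on, against 27.4% and 27.5% of all genes tested. Rcl1, a processome protein that binds Bms1, had 113, 113 and 113 CPM with MYC on, 57.2, 58.3 and 57.8 with MYC intermediate, and 14.2, 12.4 and 14.1 with MYC off (log2 difference of 3.09 ± 0.0741 SE, adjusted p = 3.12e-14). Nob1, the nuclease that makes the end of 18S rRNA, had 147, 137 and 135 CPM with MYC on, 73.4, 79.6 and 79 with MYC intermediate, and 33.6, 37.3 and 35.3 with MYC off (log2 difference of 2.01 ± 0.0636 SE, adjusted p = 5.46e-13). Both lay in the range of the members. Bysl, a factor of small subunit export, went the other way, with 536, 568 and 581 CPM with MYC on, 1108, 1116 and 1237 with MYC intermediate, and 1417, 1379.6 and 1415 with MYC off (log2 difference of −1.29 ± 0.0567 SE, adjusted p = 2.1e-11). Bysl shares 361 exonic bases (9.37%) with Ccnd3 on the other strand, which had 1918, 4558 and 6041 CPM in the 3 groups, and reads of the shared bases cannot be told apart without strand. The kinase gene Riok3 was also lower in MYC on, with 62.8, 68.7 and 58.2 CPM with MYC on, 74.2, 73.3 and 74.2 with MYC intermediate, and 84.5, 86.5 and 81.9 with MYC off (log2 difference of −0.38 ± 0.0654 SE, adjusted p = 9.69e-05).

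Of 40 other large subunit factors 36 were higher in MYC on and 0 lower (0 also at an unadjusted p under 0.05 and by DESeq2). Over all genes tested these shares were 27.4% and 27.5%. Rrp15 had 144, 141 and 127 CPM with MYC on, 67.6, 70.9 and 71.1 with MYC intermediate, and 24.1, 24.1 and 19.9 with MYC off (log2 difference of 2.63 ± 0.0848 SE, adjusted p = 6.9e-13). Mdn1, a large ATPase that strips factors from the large subunit, had 29.7, 48 and 39 CPM with MYC on, 21.8, 27.3 and 15.3 with MYC intermediate, and 5.82, 6.76 and 8.58 with MYC off (log2 difference of 2.5 ± 0.20 SE, adjusted p = 3.03e-08), and its MYC intermediate replicate 2 lay close to its lowest MYC on library. Of 14 tested genes of the RNA exosome and exonucleases, which trim the precursor, 11 were higher and 0 lower, against the same 27.4% and 27.5%. Their median was 0.48 (1 lower at an unadjusted p under 0.05, 0 by DESeq2). The exosome genes Exosc7 (log2 difference of 1.52 ± 0.0773 SE, adjusted p = 1.14e-10) and Exosc1 (log2 difference of 1.35 ± 0.0874 SE, adjusted p = 1.86e-09) led them.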

How the data were processed

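Polyadenylated RNA from 9 libraries of a murine T-ALL line was analyzed. The libraries were made with oligo(dT) priming and a kit that does not mark strand. Trimming with cutadapt 1.16, alignment with STAR 2.5.4b, counting with featureCounts and the build mm10 are named in the processing notes of the submitters. The release of the annotation and whether counting used strand are not given in the sources used here. The deposited counts are raw reads per gene, and the deposited TPM were scaled by the authors for gene length and depth.

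The members and lists were chosen with earlier results of these data known. GENCODE release M21 of mm10 gave symbols for 53274 of 53380 identifiers. Counts were tested with edgeR 4.0.16 (quasi-likelihood F test) in R 4.3.3, with TMM, the default count filter, all 9 libraries and a term for group but none for replicate. Benjamini-Hochberg adjustment ran over the 14098 genes tested, with calls at an adjusted p under 0.01. The SE was the absolute log2 fold change over the square root of F. DESeq2 1.42.0 served as an alternative, beside other scalings, filters and left-out libraries. The edgeR and DESeq2 fits were also run on simulated counts with known changes, as a check of the code whose outcome is not given here. Fold changes are positive where the first-named group is higher. A count of 3, the detection limit, is 0.0756 to 0.160 CPM, and covers counting error only, since PCR reads without molecular tags are not independent molecules.

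As a check of pairing by replicate number, deviations from the group means were correlated over 9946 genes. For numbers 1 to 3, r was 0.375, 0.253 and 0.220 between MYC on and MYC off. It was 0.132, −0.180 and −0.165 when MYC on was set against MYC intermediate, then 0.371, 0.0346 and 0.0838 when the latter was set against MYC off. Across numbers, r was 0.377 between MYC on 3 and MYC intermediate 2, and 0.169 between MYC on 2 and MYC intermediate 3. It was 0.257 between MYC intermediate 3 and MYC off 2, and 0.251 between MYC intermediate 2 and MYC off 3. The other r across numbers ran from −0.384 to 0.147. Each MYC on library thus had its highest r with the MYC off library of the same number. Libraries 2 and 3 of MYC intermediate had their highest r with numbers 3 and 2 of both other groups. Deviations within a group cancel out, so these r are not independent of each other. Whether libraries share a culture was not tested. No label explains the numbers. Copies of members were sought among GENCODE transcripts (95% identity over 200 bases), and promoters came from RefSeq (GRCm38.p6). Values in each library are given per role group for the 5 members with the largest and the 2 with the smallest fold change between MYC on and MYC off, for members not called or not tested, and for the largest unequal steps. Of the other pathway genes, the 2 with the largest change per list and those lower in MYC on are named. No protein sequences were used here.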

Additional observations from a re-analysis of the deposited data

How the results depend on the processing

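Of 1003 log2 fold changes of single members between MYC on and MYC off, recomputed under 17 alternatives, 1001 kept direction and call, and 58 members were called under every alternative. The other 2 were Utp3, never called, which ranged from −0.0999 to 0.0065 as libraries were left out. With a replicate block 58, 57, 57 and 15 members were called for MYC on against MYC off, in the first step, in the second step and for unequal steps. The block changed no count by over 1.5 times. It goes by replicate number, whereas libraries 2 and 3 of MYC intermediate had their highest r with numbers 3 and 2. The block therefore cannot show how the counts would depend on a pairing that follows those correlations. Leaving out 1 library gave 58, 54 to 57, 56 to 57 and 10 to 15. In the first step Dhx37 lost its call without MYC on replicate 2 or 3 or any MYC intermediate library (adjusted p = 0.0112 to 0.0286), Rrp1 without MYC on replicate 3 or MYC intermediate replicate 1 or 3 (0.0144 to 0.0262), Ddx10 without MYC on replicate 1 or 2 or MYC intermediate replicate 2 (0.0155 to 0.025), and Nol11 without MYC intermediate replicate 2 (0.0117). In the second step Dhx37 was called without MYC off replicate 1 (0.00915). For unequal steps Nolc1 lost its call without replicate 2 or 3 of any group (0.0102 to 0.0379) and Mrto4 without MYC on replicate 2 or 3, MYC intermediate replicate 1 or 2 or MYC off replicate 3 (0.0117 to 0.034), and Utp18 gained one without MYC off replicate 1 (0.0069). Without a count filter 22 members, and 2.74% of genes, had unequal steps with MYC intermediate above the midpoint on the log2 scale. The median of members was 1.73 between MYC on and MYC off and 0.975 in the second step with upper quartile scaling, and 0.999 in the second step with library size alone. Upper quartile scaling also moved the share of higher genes among all calls of the second step from 59.6% to 45.4%, while the shift of the median of all genes under another scaling reached at most 0.0703, for unequal steps. Of deposited TPM the members held 1.30%, 0.747% and 0.378% in the 3 groups. The share of member promoters with TATAAA differed by −8.26 percentage points from that of all promoters and by −1.38 points from that of tested genes. The cause of these shifts was not tested. Wdr74 had too few counts to be tested.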
